A study of Mus musculus with 9 samples.

Results

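In alveolar macrophages of mice aged 1 week, 68 genes at low levels in wild type cells were strongly higher in cells labelled Suz12 cKO. The set was chosen from the measurements themselves. Levels are CPM, the count of a gene divided by the total count of its library, times 1e6. A gene was taken when its mean over the 4 wild type libraries was below 4 CPM, its mean over the 5 knockout libraries was 2 CPM or more, the knockout mean was at least 5 times the wild type mean, and every knockout library was above every wild type library. Of 27179 genes in the table, 17100 met the wild type ceiling, 1008 of these also met the knockout floor, and 92 of the 1008 (9.13%) also met the ratio. Without the ratio, 244 of the 1008 (24.2%) had groups that did not overlap. All 4 conditions held for 74 genes, and 6 of these were left out by name or gene family, which leaves the 68. Because both groups were used in the choice, the difference between the groups in these genes is a description and was not tested.

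Macrophages were purified from lung by fluorescence-activated cell sorting, and polyadenylated RNA was sequenced in 4 wild type and 5 Suz12 cKO libraries, all on the C57BL/6 background. The submitters describe the libraries of a group as biological replicates. Neither the Cre driver nor the deleted exons, the sex, the gate or any pooling of mice is given in the sources used here. Suz12 read 65.6, 77.0, 47.1 and 66.4 CPM in wild type libraries 1 to 4 and 12.4, 15.6, 21.5, 13.6 and 19.4 CPM in knockout libraries 1 to 5, so the groups did not overlap. Its log2 fold change was -2.06 (SE 0.18, edgeR quasi-likelihood test, adjusted p = 1.69e-05). Reads remained in every knockout library, and undeleted exons and undeleted cells cannot be told apart in whole-gene counts.

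Suz12 belongs to the core of Polycomb repressive complex 2 (PRC2). This complex methylates lysine 27 of histone H3 through its catalytic subunit Ezh2 or Ezh1. Polycomb target promoters are typically rich in CG dinucleotides (CpG islands), and many belong to developmental regulators and to genes of other cell lineages. Alveolar macrophages settle in the air spaces around birth, where they clear surfactant and inhaled particles. No chromatin mark was measured here, so which of the 68 genes carry the mark in these cells was not tested.

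RefSeq promoter windows of 300 bases, 250 before and 50 after the transcription start (GRCm38.p6), matched 55 of the 68 genes, and 5 of them are shown upstream of the start to make the range of sequence visible. The sorting receptor gene Sorl1, on the minus strand at chr9:42124298-42124547, is CG-rich. Vegfa, on the minus strand at chr17:46032378-46032627, and Rragd, on the plus strand at chr4:32982748-32982997, hold fewer CG. In these 3 sequences capitals mark CG dinucleotides, of which there are 26, 11 and 5.
Sorl1: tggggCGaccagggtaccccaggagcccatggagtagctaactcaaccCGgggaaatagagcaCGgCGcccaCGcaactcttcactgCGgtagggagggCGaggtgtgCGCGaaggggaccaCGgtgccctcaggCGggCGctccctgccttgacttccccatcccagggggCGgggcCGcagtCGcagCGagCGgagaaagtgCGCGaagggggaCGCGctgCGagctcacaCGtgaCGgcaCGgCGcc
Vegfa: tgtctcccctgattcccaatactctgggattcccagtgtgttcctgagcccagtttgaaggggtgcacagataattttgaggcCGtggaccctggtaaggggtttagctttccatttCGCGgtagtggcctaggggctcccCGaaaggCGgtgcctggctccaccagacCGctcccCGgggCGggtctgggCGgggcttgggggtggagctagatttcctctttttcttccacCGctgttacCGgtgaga
Rragd: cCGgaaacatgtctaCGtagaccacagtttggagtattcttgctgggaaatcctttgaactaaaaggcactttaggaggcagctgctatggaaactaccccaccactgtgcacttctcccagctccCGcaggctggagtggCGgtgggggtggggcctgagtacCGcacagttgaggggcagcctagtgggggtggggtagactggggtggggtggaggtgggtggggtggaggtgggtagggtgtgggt
Areg, on the plus strand at chr5:91139349-91139598, and Il6, on the plus strand at chr5:30012864-30013113, are shown for letter matches to motifs. Capitals mark TGACGTCA and TATAAA in Areg, and in Il6 a TGAGTCA, one form of the pattern TGANTCA.
Areg: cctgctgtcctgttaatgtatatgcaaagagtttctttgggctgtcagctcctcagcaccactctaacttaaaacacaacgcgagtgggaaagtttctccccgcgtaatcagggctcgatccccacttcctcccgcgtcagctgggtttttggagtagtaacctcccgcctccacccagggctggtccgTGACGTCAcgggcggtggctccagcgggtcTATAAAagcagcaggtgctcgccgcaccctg
Il6: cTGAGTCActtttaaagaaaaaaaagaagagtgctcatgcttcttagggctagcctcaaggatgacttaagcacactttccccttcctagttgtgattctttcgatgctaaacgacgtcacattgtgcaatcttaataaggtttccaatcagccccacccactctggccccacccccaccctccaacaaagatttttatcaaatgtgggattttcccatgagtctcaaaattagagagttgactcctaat
Each of the 5 stretches lies outside every exon of the GENCODE annotation.

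The promoters of the 55 matched members were mostly CG-rich, with a poor minority. The other 13 members, Penk and Bambi among them, had no promoter entry. For each gene the annotated promoter with the most CG was used. The 55 matched members held a median of 26 CG (quartiles 7.5 and 37) and a median GC content of 66%. At least 15 CG were present in 39 of the 55 (70.9%), and fewer than 5 in 9 (16.4%). Protein coding genes with the same wild type ceiling and knockout floor that were not members (621 with a promoter) held a median of 18 CG, with 15 or more in 58.6% and fewer than 5 in 12.6%. Genes below 4 CPM in wild type and below 2 CPM in the knockout (8215) held a median of 5, with 15 or more in 24.6%, and genes at 4 CPM or more in wild type (7893) held a median of 23, with 15 or more in 78.9%. Over all 16784 protein coding promoters 51.5% held 15 or more. With the promoter of fewest CG in place of the one with the most, the members' median was 17 and that of the other low-baseline genes 14. The shares with 15 or more were then 52.7% and 48.5%, which narrows the difference. Genes are not replicates, and these shares were not tested.

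**Figure D1:**
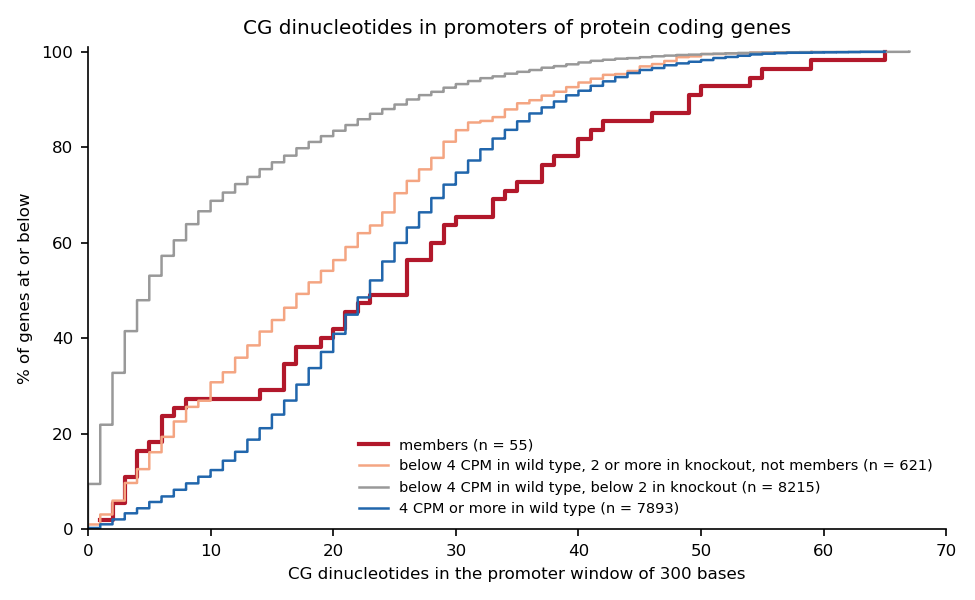
Cumulative share of protein coding genes (y axis, %) by the number of CG dinucleotides in the promoter window of 300 bases (x axis), for members, other low-baseline genes and the remaining expression classes. The members' curve lies to the right of that of the other low-baseline genes over most of its upper range, with medians of 26 and 18.

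Short motifs were sparse in these windows, searched on both strands and none of the 3 patterns below contains another. TGANTCA, the letters of the AP-1 site, was present in 2 of 55 members (Me1 and Il6, 3.64%) against 6.90% of all protein coding promoters. TGACGTCA, the cyclic AMP response element, was present in 2 (Areg and Arl4d, 3.64%) against 2.40%. TATAAA was present in 3 (Areg, Inhba and Iqcn, 5.45%) against 12.8%. In the same order, the shares were 4.19%, 2.58% and 8.70% in the other low-baseline protein coding genes. They were 4.29%, 3.50% and 5.73% in genes at 4 CPM or more in wild type. Each of these lies closer to the members' share than that of all protein coding promoters does. A match is a run of letters and not evidence of binding.

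Levels were low throughout. The wild type means ran from 0 to 3.61 CPM with a median of 0.462, and 52 of the 68 were under 1 CPM. The knockout means ran from 2.02 to 54.6 CPM with a median of 3.83. In the knockout 44 genes stayed under 5 CPM and 8 exceeded 10 CPM. The median ratio was 9.37. All 68 passed edgeR's filter on low counts. Their median log2 fold change was 3.11 against 0.49 in the 939 other low-baseline genes and 0.04 over all 12840 tested genes. The rule demanded a 5-fold ratio and no overlap of the members, so this gap follows from the choice. In the edgeR fit 1152 genes (8.97%) were called higher and 1409 (11%) lower. The balance turned to 1960 higher and 1013 lower with library size only and to 1209 and 871 with length correction. Total counts ranged from 13.8 to 25.3 M (M, 1e6) in wild type and from 18.6 to 45.6 M in the knockout. Every wild type library was shallower than knockout libraries 1, 2, 3 and 5. Knockout library 4, at 18.6 M, was shallower than wild type libraries 1, 2 and 4.

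**Figure D2:**
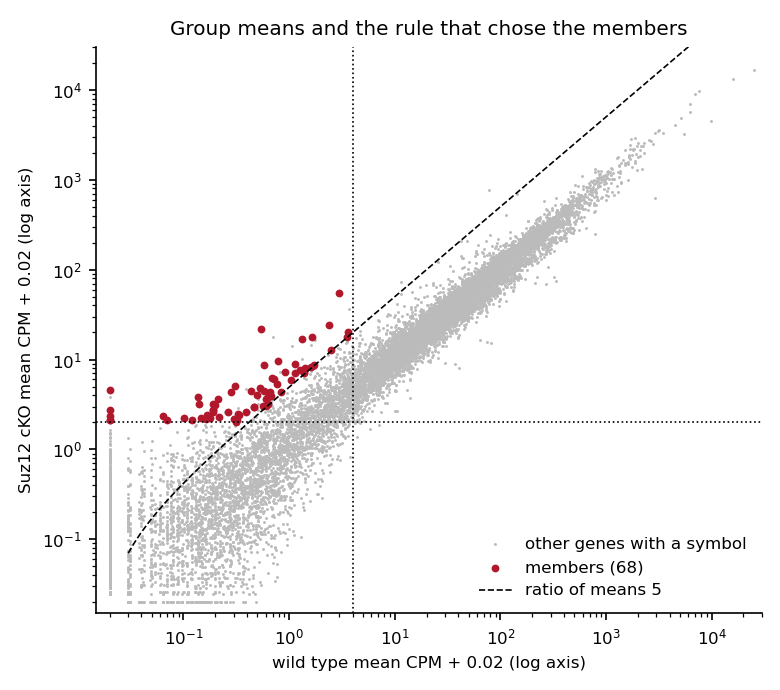
Mean CPM of the 5 Suz12 cKO libraries (y axis) against that of the 4 wild type libraries (x axis), each plus 0.02 on log axes, 1 point per gene. The 68 members occupy the corner set by the wild type ceiling of 4 CPM, the knockout floor of 2 CPM and the 5-fold ratio, and most lie close to the floor.

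Genes of secreted signals formed 1 of the larger groups, with 9 members. Penk encodes proenkephalin, the precursor of enkephalin opioid peptides, and read 3.77, 3.10, 1.23 and 1.38 CPM in wild type libraries 1 to 4 and 23.9, 26.5, 38.4, 13.3 and 18.9 CPM in knockout libraries 1 to 5. Its mean moved from 2.37 ± 1.26 (SD, n = 4) to 24.2 ± 9.41 CPM (SD, n = 5), a ratio of 10.2, and the lowest knockout library stood clear of the highest wild type library. Per kilobase of counted length it had the highest knockout level of the 68, at 17.1 CPM per kb.

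Il6, which encodes the cytokine interleukin 6, read 0, 0, 2.24 and 0 CPM in wild type and 2.58, 12.5, 3.13, 10.9 and 14.1 CPM in the knockout. Knockout libraries 1 and 3 stood barely above wild type library 3, the only wild type library with reads. The means were 0.561 ± 1.12 and 8.63 ± 5.39 CPM, a ratio of 15.4. Without wild type library 3 the knockout was at least 208.9-fold higher, against a floor of 3 counts over the remaining wild type libraries. That floor covers counting error only, and 208.9 is not a lower limit over all wild type libraries. By RefSeq gene span Il6 overlaps the counted gene A230098N10Rik, and the strand setting of the counting is not given, so reads of the pair may not be separable.

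Growth factor genes followed. Areg encodes amphiregulin, a ligand of the epidermal growth factor receptor, and read 0.266, 0.725, 1.16 and 0.672 CPM in wild type against 5.38, 11.3, 1.92, 7.91 and 3.68 CPM in the knockout. Its lowest knockout library was library 3, and the means were 0.705 ± 0.365 and 6.04 ± 3.67 CPM. Vegfa, the main growth factor of blood vessel endothelium, read 0.0887, 0.725, 2.17 and 0 CPM in wild type and 3.30, 5.66, 5.37, 5.54 and 6.47 CPM in the knockout. The 5 knockout libraries lay close together, with means of 0.746 ± 1.0 and 5.27 ± 1.18 CPM. Pgf, the placental growth factor of the same family, read 1.77, 2.21, 0 and 2.37 CPM against 8.53, 13.2, 4.69, 7.16 and 7.70 CPM, a ratio of 5.19. Both proteins are ligands of VEGF receptors.

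Inhba, which encodes the subunit of activin A, a ligand of the TGF-beta family, read 0, 0.322, 0.145 and 0 CPM in wild type and 1.78, 6.40, 2.71, 2.80 and 5.44 CPM in the knockout, a ratio of 32.8. Without wild type library 2 the ratio was 79.3. Ndnf, a secreted neurotrophic factor, had no read in any wild type library and 0.727, 2.81, 1.32, 3.39 and 3.46 CPM in the knockout, at least 67.5-fold higher against a floor of 3 counts over the wild type group. Spag11b, a secreted peptide gene of the epididymis, read 0, 0.483, 0 and 0 CPM against 3.88, 6.38, 1.29, 2.37 and 1.95 CPM. It has a near-identical copy, Spag11a, and its counts are uncertain for that reason. Tsku, a secreted leucine-rich repeat protein, had means of 0.177 and 3.10 CPM.

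**Figure D3:**
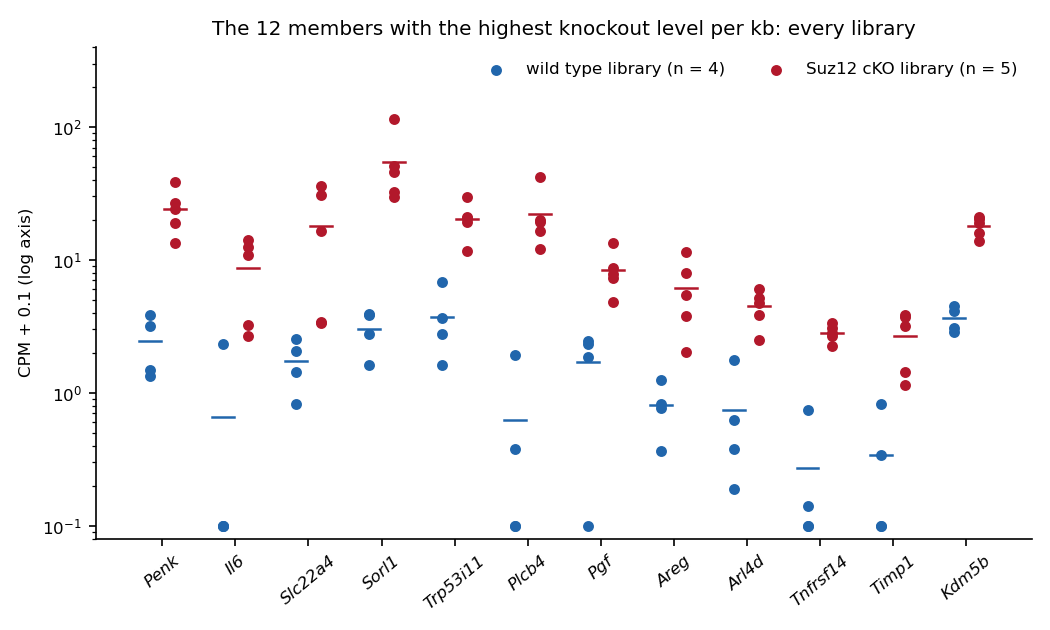
CPM plus 0.1 on a log axis in every library for the 12 members with the highest knockout mean per kilobase, wild type and Suz12 cKO as separate points. The groups are apart in each gene by the rule, and Slc22a4, Il6 and Areg show the widest knockout spreads, with Slc22a4 from 3.27 to 35.9 CPM.

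Among 8 genes of surface receptors and membrane proteins, Sorl1 had the highest CPM of the whole set. This gene encodes a sorting receptor that routes cargo between the Golgi and endosomes. It read 3.77, 2.66, 1.52 and 3.84 CPM in wild type and 50.9, 46.0, 114, 29.4 and 32.5 CPM in the knockout. Knockout library 3 was far above the other four, and the means were 2.95 ± 1.09 and 54.6 ± 34.4 CPM, a ratio of 18.5. Trp53i11, named as a p53-inducible gene, read 6.74, 3.54, 1.52 and 2.65 CPM against 20.8, 29.7, 11.6, 20.4 and 19.2 CPM, with library 3 the lowest here.

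Tnfrsf14 encodes HVEM, a TNF receptor family member that binds BTLA, and read 0, 0.644, 0 and 0.0396 CPM in wild type and 2.58, 2.99, 3.24, 2.15 and 2.72 CPM in the knockout. The knockout libraries were even, with a coefficient of variation (CV, the SD as a percentage of the mean) of 15.1%, and the ratio was 16.0. Without wild type library 2 it was 207.5, a value that rests on the 0.0396 CPM of wild type library 4 alone. Lag3, an inhibitory receptor best known from T cells, had means of 0.197 and 2.28 CPM. Markers of T, NK and innate lymphoid cells summed to 259 to 329 CPM in wild type and 33.9 to 154 CPM in the knockout. Of 6 tested, edgeR called 2 lower (Cd2 and Il7r, 33.3%), against 11% of all tested genes. That count was 1 with library size only or length correction, and 0 without knockout library 5. Btnl4, a butyrophilin-like gene, read 0.399, 0, 0 and 0 CPM against 1.59, 2.33, 2.77, 1.72 and 2.15 CPM, a ratio of 21.1. Without wild type library 1 it was at least 45.0-fold higher against the floor of 3 counts, which is no lower limit over all wild type libraries. Bambi, a decoy receptor that dampens TGF-beta family signals, had means of 2.46 and 12.8 CPM. Lrrc3 and Tspan9 had knockout means of 2.98 and 2.24 CPM.

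Matrix and protease genes numbered 5, and 3 of them encode basement membrane proteins. Col4a2, a chain of type IV collagen, read 1.06, 0.201, 0 and 1.78 CPM in wild type and 7.05, 10.5, 21.0, 5.49 and 4.30 CPM in the knockout. Its partner Col4a1 read 1.95, 0.886, 1.23 and 0 CPM against 6.21, 7.78, 9.01, 3.50 and 2.87 CPM. The order of the 5 knockout libraries was the same in both genes, which lie head to head on chromosome 8 and overlap by RefSeq gene span. The ratios were 12.7 and 5.78, and without wild type library 4 that of Col4a2 was 23.0. Nid1, a nidogen that links laminin to collagen IV, had means of 0.610 and 3.82 CPM.

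Timp1, an inhibitor of matrix metalloproteinases, read 0, 0.242, 0.724 and 0 CPM in wild type and 1.32, 3.65, 1.05, 3.07 and 3.77 CPM in the knockout, with libraries 1 and 3 low as in Il6. The ratio was 10.7, and 31.9 without wild type library 3. Timp1 overlaps Syn1 by RefSeq gene span, and it lies on the X chromosome with 3 other members. Htra3, a serine protease, had means of 1.37 and 7.46 CPM. Of 28 other tested genes of collagens, laminins and related matrix, 4 (14.3%) were called higher by edgeR (Lamc1, Emilin2, Col9a3 and Col9a2), against 8.97% of all tested genes. None was called lower by edgeR, limma voom or DESeq2, or lower at an unadjusted p under 0.05, against 11% called lower overall. The count of higher calls ran from 1 to 10 over the alternatives.

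C4b, a complement component of the classical pathway, was the least even member. It read 0.710, 0.443, 0 and 0 CPM in wild type against 2.40, 2.70, 16.0, 2.04 and 2.43 CPM in the knockout, a CV of 119%, the highest of the 68. Library 3 carried most of the C4b mean: the ratio was 17.7 over all libraries and 8.31 without it, and 34.6 without wild type library 1. C4b has a near-identical copy, C4a, so its counts are uncertain.

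Intracellular signalling genes numbered 10. Plcb4 encodes a phospholipase C that acts downstream of Gq-coupled receptors, and read 0, 1.81, 0 and 0.277 CPM in wild type and 19.3, 42.0, 11.9, 16.5 and 20.02 CPM in the knockout. Its means were 0.522 ± 0.870 and 21.9 ± 11.7 CPM. The ratio of 42.0 depended on wild type library 2, without which it was 237.9, while every knockout library stood above 10 CPM. Arl4d, a small GTPase, had means of 0.638 and 4.37 CPM. Rragd, a Rag GTPase that carries amino acid signals to mTORC1, read 0.222, 0, 0 and 0.356 CPM against 1.96, 2.44, 1.92, 2.58 and 1.89 CPM. Ddit4, a stress-induced inhibitor of mTORC1, had means of 0.170 and 2.56 CPM, so an activating and an inhibiting gene of that pathway were both in the set. Yes1, a Src family kinase, and Cdk18 had ratios of 9.30 and 10.7. The remaining signalling members were Sestd1, Tbc1d8, Dock9 and Rilpl1, with knockout means of 8.63, 7.02, 3.04 and 2.20 CPM. Of 35 other tested genes of phospholipases, phosphodiesterases and adenylyl cyclases, 5 (14.3%, against 8.97% of all tested genes) were called higher by edgeR (Pde4d, Pla2g12a, Pde4b, Pde3b and Plcg2) and 0 lower, against 11% overall. At an unadjusted p under 0.05, 5 were lower, and DESeq2 called 1 lower.

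Transport and metabolism held 7 genes. Slc22a4 encodes OCTN1, a carrier of ergothioneine, and read 1.33, 0.725, 2.46 and 1.98 CPM in wild type and 30.6, 16.5, 3.27, 35.9 and 3.33 CPM in the knockout. The 5 knockout libraries lay far apart, with libraries 3 and 5 just above the highest wild type library and a CV of 84.4%. Me1, the cytosolic malic enzyme that supplies NADPH, had means of 0.259 and 4.30 CPM, and Abca5, a lipid transporter, 0.561 and 4.42 CPM. Pxylp1, a phosphatase of glycosaminoglycan synthesis, read 0, 0.201, 0 and 0 CPM against 1.74, 2.47, 1.66, 2.15 and 2.46 CPM. Its ratio of 41.6 rests on few wild type reads. Stard10, a lipid transfer protein, and Atp9a, a phospholipid flippase, were nearest the knockout floor, at 2.09 and 2.02 CPM. Cyp4a12a, a fatty acid hydroxylase with a near-identical copy, Cyp4a12b, is uncertain, at 0.128 and 2.20 CPM.

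The 11 genes of cytoskeleton, junctions and trafficking included polarity and junction proteins. Plekha6, which has a pleckstrin homology domain, read 1.29, 0.966, 1.45 and 1.54 CPM in wild type and 19.7, 24.3, 7.67, 15.01 and 17.9 CPM in the knockout. Both groups were far apart, with means of 1.31 ± 0.253 and 16.9 ± 6.18 CPM, a ratio of 12.9. Fmnl2, an actin-nucleating formin, read 0.665, 0.121, 2.61 and 1.11 CPM against 3.50, 5.74, 15.8, 3.98 and 6.58 CPM, again with library 3 highest. Its ratio was 6.32, and 11.3 without wild type library 3. Sntb1, a syntrophin of the dystrophin complex, read 0.177, 0, 0 and 0 CPM against 2.49, 3.16, 2.61, 2.04 and 1.51 CPM, the largest finite ratio of the set at 53.3. Enah, an actin regulator, Pard3b, a polarity protein, and Pkp2, a desmosomal plakophilin, had ratios of 16.5, 16.1 and 5.26, and without wild type library 2, which held all its wild type reads, Pard3b was at least 56.5-fold higher. Caskin2, Map7, Pacsin1, Plekha5 and Sec16b had knockout means between 2.45 and 7.55 CPM.

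Regulators of chromatin, transcription and RNA numbered 8. Kdm5b encodes a demethylase of trimethylated lysine 4 of histone H3, and read 4.04, 2.98, 4.42 and 2.77 CPM in wild type and 13.7, 20.9, 18.9, 15.8 and 20.1 CPM in the knockout, with means of 3.55 ± 0.800 and 17.9 ± 3.02 CPM. Its knockout CV, 16.9%, was the lowest of the 8 members above 10 CPM, and it lay near both the wild type ceiling and the ratio threshold. Sfmbt2, a Polycomb group protein with MBT repeats, read 0, 1.17, 0 and 0.751 CPM against 3.68, 5.51, 1.21, 4.74 and 5.11 CPM, so that knockout library 3 lay close to wild type library 2.

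Igf2bp1, an RNA-binding protein of fetal tissues, had no wild type read and 1.37, 3.79, 4.45, 1.51 and 2.39 CPM in the knockout, at least 77.9-fold higher against the floor of 3 counts. Zfp651, a zinc finger gene, also had none and 1.41, 2.96, 2.03, 1.83 and 2.39 CPM, at least 61.2-fold higher. The other zinc finger members, Zfp438 and Zfp507, had ratios of 5.97 and 9.45. Ssbp2, a DNA-binding protein, and Nxf7, a relative of RNA export factors, had ratios of 5.23 and 6.12. Of 398 other tested C2H2 zinc finger genes, 27 were called higher (6.78%) and 10 lower (2.51%), shares below the 8.97% and 11% of all tested genes. With library size only 52 were called higher.

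The last 8 genes fall outside these groups. Dnaja4, a co-chaperone of Hsp70, read 0.532, 0.242, 0 and 0 CPM in wild type and 3.57, 4.16, 2.98, 4.36 and 3.25 CPM in the knockout, a CV of 16.1% and a ratio of 18.9. Fbxl22 and Abtb2, with domains of ubiquitin ligase adaptors, had ratios of 6.71 and 6.61, and without wild type library 2 of 22.05 and 9.92. Iqcn, a gene best known from sperm, had no wild type read and 5.99, 3.07, 1.37, 3.66 and 8.44 CPM, at least 129.9-fold higher, and Maged2, of the MAGE family, had none and was at least 60.4-fold higher. Krba1, Armcx2 and the clone-named 2700081O15Rik had ratios of 7.52, 7.78 and 5.76.

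The knockout libraries differed among themselves in these genes. Library 2 held the highest value of 30 members and libraries 1, 3, 4 and 5 that of 4, 16, 3 and 15. Library 3 held the lowest value of 26, and libraries 1, 2, 4 and 5 that of 18, 2, 15 and 7. Among the 939 other low-baseline genes library 2 was highest in 33.2% and library 3 lowest in 42.3%, so those 2 libraries took the same ends there. The median CV over the knockout libraries was 31.6% for members and 24.0% for the other low-baseline genes, and in 46 members the highest knockout library was more than 2-fold above the lowest. Summed over the members, the knockout libraries gave 405, 540, 464, 373 and 398 CPM and the wild type libraries 51.8, 55.3, 42.1 and 41.2 CPM.

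**Figure D4:**
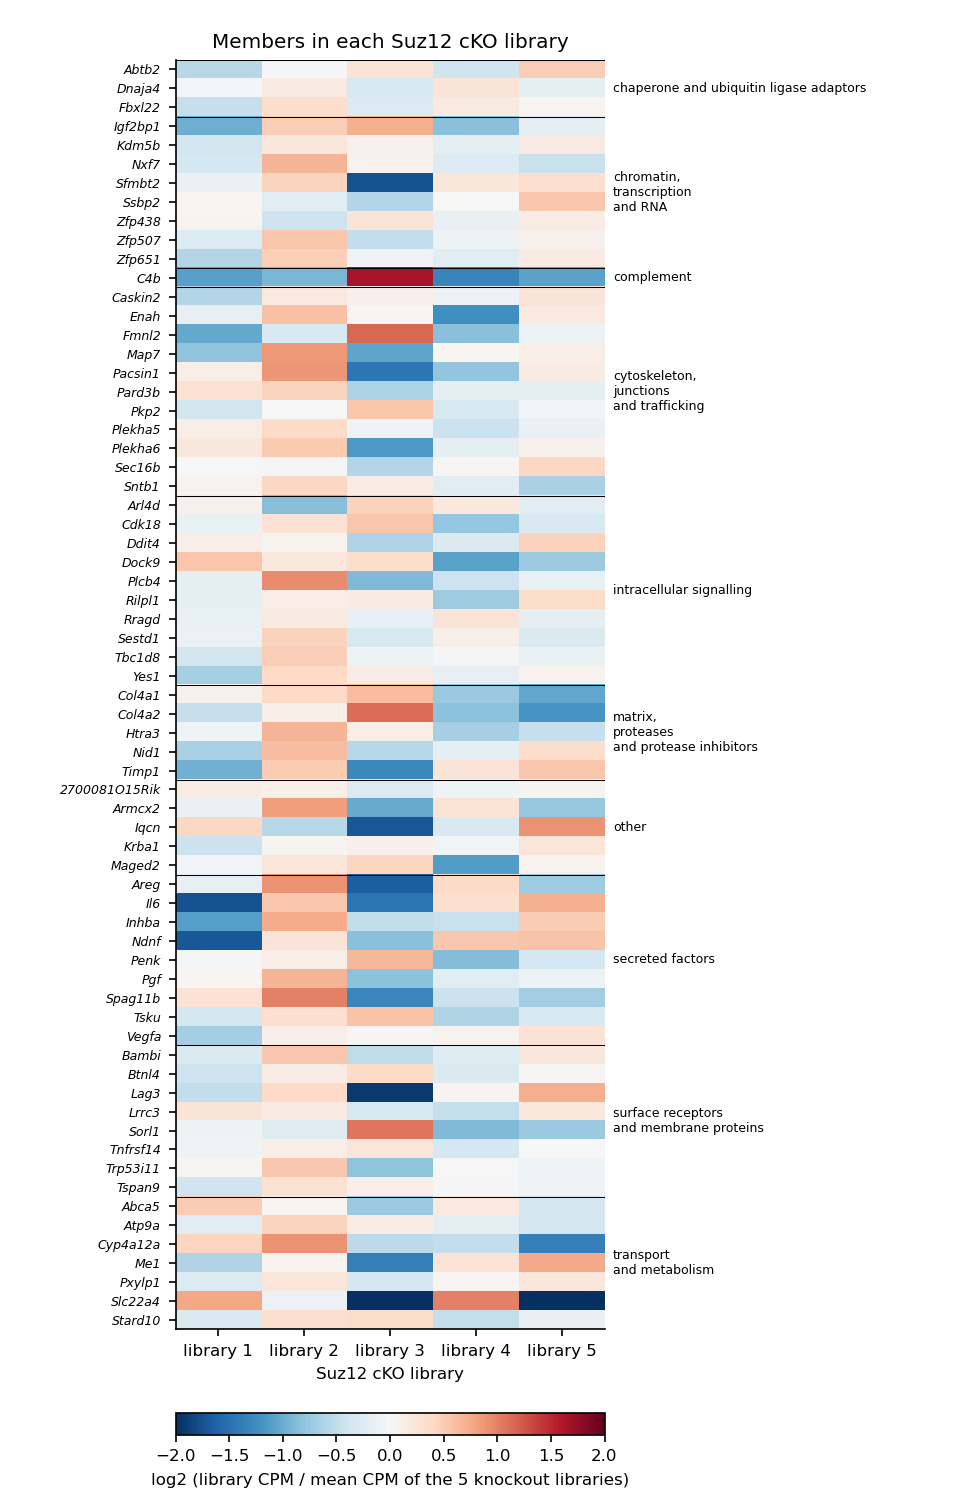
Level of each member in each of the 5 Suz12 cKO libraries, as log2 of the library's CPM over the mean of the 5 (colour), 67 of the members in rows grouped by role. Library 3 holds both the strongest excesses, as in C4b and Sorl1, and the lowest value of 26 members.

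Other features also differed among the libraries. Library 3 of the knockout was highest in summed interstitial macrophage markers (1871 CPM, against 415 to 705 in the other knockout libraries and 89.1 to 160 in wild type) and in neutrophil markers (200 CPM, against 81.3 to 122 and 69.2 to 89.8). Erythroid and platelet markers set libraries 2 and 3 apart, at 313.7 and 308 CPM, against 24.97 to 34.3 CPM in the other knockout libraries and 24.8 to 113 CPM in wild type. Monocyte markers summed to 2761, 4969, 2524, 4061 and 4875 CPM in knockout libraries 1 to 5, lowest in libraries 1 and 3, as in Il6 and Timp1, and to 1874 to 2795 CPM in wild type. Xist, the RNA of the inactive X chromosome, was at 306 to 437 CPM in wild type libraries 1 to 3, 423 and 378 CPM in knockout libraries 2 and 5, and 0 to 0.132 CPM in the remaining 4. The part of these differences in the members' spread was not tested.

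Whether the choice holds in a library it did not use was examined by leaving out each library, choosing genes by the same rule from the other 8, and placing the left-out library against the other group. For knockout libraries 1 to 5, the left-out library lay above all 4 wild type libraries in 73 of 75, 54 of 55, 65 of 80, 73 of 73 and 68 of 68 chosen genes. The same held for 41.3%, 53.3%, 33.8%, 37.8% and 45.8% of the other low-baseline genes. For wild type libraries 1 to 4, the left-out library lay below all 5 knockout libraries in 76 of 82, 78 of 87, 69 of 90 and 73 of 86 chosen genes, against 49.8%, 47.7%, 51.6% and 52.2%. The shares were lowest for wild type library 3 (76.7%), the shallowest library, and for knockout library 3 (81.3%). Fewer of the chosen genes kept the 5-fold ratio. Left-out knockout libraries 1 to 5 were at least 5 times the wild type mean in 55, 51, 42, 57 and 56 of them. The knockout mean was at least 5 times left-out wild type libraries 1 to 4 in 47, 45, 47 and 53. The other low-baseline genes are those not chosen from the same 8 libraries, mostly because they failed the ratio or the overlap condition there. The group opposite the left-out library also entered the choice. Part of the gap between chosen and other genes therefore follows from the rule. Of the 68 members, 40 were chosen in each of the 9 rounds and 28 were lost in at least 1, with Dock9 and Kdm5b lost in 5.

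**Figure D5:**
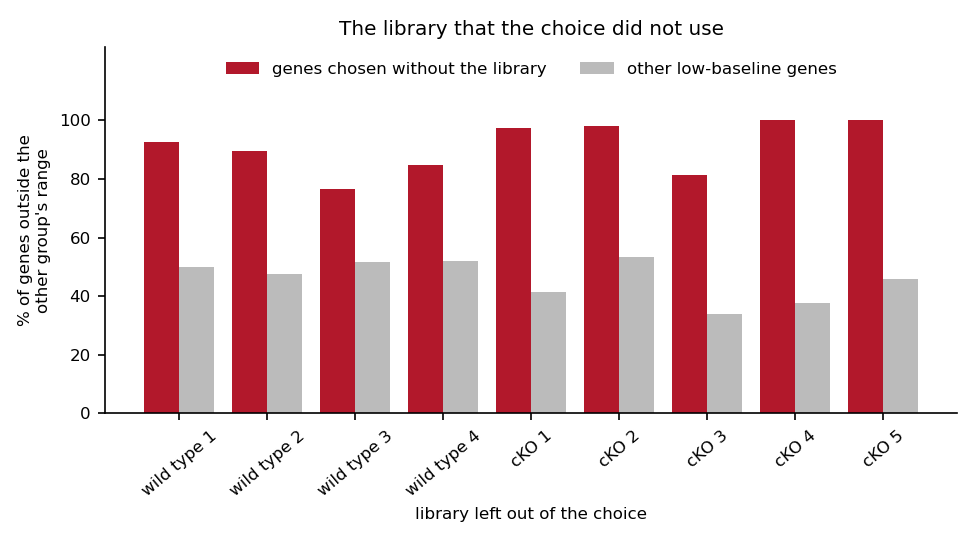
Share of genes (y axis, %) in which the library left out of the choice lay outside the range of the other group, for the genes chosen without it and for the other low-baseline genes, 1 pair of bars per library (x axis). The chosen genes reached 76.7% to 100% and the other genes 33.8% to 53.3%, a gap that follows in part from the rule.

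Just inside the wild type ceiling of 4 CPM lay Trp53i11 (3.61 CPM) and Kdm5b (3.55 CPM), and just outside Pitpnm2 (5.60 CPM) and Nr4a2 (11.4 CPM). Just below the knockout floor were Pi16 (1.87 CPM) and Wdr93 (1.83 CPM). Around the ratio of 5 were Sestd1 (5.02) and Kdm5b (5.03) inside, and Klhdc8a (4.98) and Dclk3 (4.95) outside. A further 18 genes failed only the condition on overlap. The 6 genes left out by name or family included Egln3 (1.06 to 14.3 CPM, wild type to knockout mean), Egr3 (0 to 3.79), Tbx15 (0.227 to 2.60), Nr4a3 (3.66 to 36.9) and Cdkn2a (0.371 to 4.68).

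Wild type zeros were common. No wild type library was at 0 in 16 members, 1 in 21, 2 in 17, 3 in 9 and all 4 in 5. Wild type libraries 1 to 4 were at 0 in 25, 17, 35 and 25 members. After each library was thinned once to the total of the smallest (13814799 counts), wild type libraries detected 41, 51, 33 and 42 members and every knockout library all 68. Over all genes, the thinned wild type libraries detected 12972.5 ± 395 genes (SD, n = 4) and the knockout libraries 15272 ± 391 (SD, n = 5), a difference with a two-sided exact permutation p of 0.00794, the smallest that the 126 splits can give. For the members the detection follows from the rule that chose them and is a description only. Ratios over so few reads can rest on 1 library. Over the 68 members, leaving out each library in turn moved the ratio by over 1.5 times, or left wild type with no read, in 40, and C4b was the 1 gene in which a knockout library did so. Beside the genes given above with such a value, the ratio became 45.5 for Dnaja4 and 45.8 for Me1 without wild type library 1. Without library 2 it became 24.3 for Ddit4, 22.05 for Fbxl22, 18.6 for Nxf7, 16.5 for Armcx2, 16.2 for Sfmbt2, 14.8 for Zfp438, 13.7 for Atp9a, 9.92 for Abtb2, 8.95 for Sestd1 and 8.82 for Tbc1d8. Without library 3 it became 32.7 for Lag3, 29.8 for Cyp4a12a, 19.4 for Vegfa, 14.98 for Krba1, 14.7 for Arl4d, 14.25 for Yes1 and 12.4 for Map7. These moves are upward, since the library left out held most of the gene's summed wild type CPM. Without library 4 the ratio became 92.7 for Tspan9, 29.2 for Rragd, 27.04 for Enah, 12.1 for Sec16b and 11.8 for Stard10. That of Tspan9 then rests on the 0.0724 CPM of wild type library 3 alone. In 9 members a single wild type library held all wild type reads, among them Il6 and Btnl4. Without that library, Tsku and Sntb1 (library 1) were at least 66.1-fold and 50.4-fold higher, and Spag11b, Caskin2, Pard3b, Rilpl1 and Pxylp1 (library 2) at least 65.2, 64.97, 56.5, 45.3 and 43.1-fold higher. Over all libraries their ratios were 17.5, 53.3, 26.3, 18.5, 16.1, 27.4 and 41.6 in that order. The values against the floor of 3 counts hold for the remaining libraries only and are not lower limits over all of them. In each case the knockout stayed above wild type, which the choice of members requires. Leaving out a wild type library can lower a ratio only by less than 1.5 times, so downward moves from wild type could not be flagged. Some of them went below 5. Without wild type library 1 the ratio became 3.76 for Sestd1 and 4.06 for Tbc1d8. Without wild type library 3 it became 3.87 for Dock9, 3.89 for Pgf and 4.05 for Lrrc3.

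The members were also long, with a median counted length of 3962 bases against 2714 for tested genes, and 48 of 68 were above the latter. By RefSeq gene span, introns included, 19 members overlap another counted gene, among them Kdm5b with Mgat4e and Zfp651 with E530011L22Rik.

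Neighbouring genes were called at shares close to those of all genes. The 133 nearest tested protein coding neighbours of the members included 11 called higher (8.27%) and 13 called lower (9.77%) by edgeR, against 9.61% and 10.5% of all 11770 tested protein coding genes. Their median log2 fold change was 0.03, against 0.05. Only 3 pairs of members lay within 1 Mb of each other: Col4a1 with Col4a2, Btnl4 with C4b, 250710 bases apart, and Armcx2 with Nxf7, 770333 bases apart.

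Polycomb genes were set beside the members from lists, to be read against the 8.97% called higher and 11% called lower over all tested genes. Of 13 PRC2 components tested, edgeR called 1 higher (Epop, 7.69%) and 2 lower (Rbbp4 and Suz12, 15.4%), with a median log2 fold change of 0.08. With library size only 3 were called higher, and without knockout library 3, 2. Of 20 components of PRC1, the complex that ubiquitinates histone H2A, 5 were called higher (Bmi1, Rnf2, Rybp and Scmh1 among them) and 1 lower (Yaf2), with a median of 0.23. Of 3 demethylases of lysine 27 of histone H3, 1 was called higher (Kdm6b). That call was lost with length correction, without knockout library 2 or 5, and without wild type library 1, 2 or 4. None of the 68 members was on these lists. The Wnt, BMP, FGF and Notch group, which holds Inhba, had 5 of 26 other tested genes called higher (19.2%) and 0 lower by edgeR, limma voom, DESeq2 or at an unadjusted p under 0.05. The count of higher calls ran from 1, without knockout library 2, to 9, with library size only. The chemokine, interleukin and TNF group, which holds Il6 and Tnfrsf14, had 7 of 80 higher (8.75%) and 6 lower (7.5%). Without wild type library 3, 14 were called higher, and with library size only 13.

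Markers of each cell type are given as sums over the list, since fewer cells of a type and less RNA per cell cannot be told apart in bulk RNA. Calls are to be read against the 8.97% called higher and 11% called lower over all tested genes. The 21 alveolar macrophage markers summed to 34974 to 67808 CPM in wild type and 26940 to 51612 CPM in the knockout, with 2 called higher (9.52%) and 6 lower (28.6%). The balance turned with the scaling, to 6 higher and 5 lower with library size only and 5 higher and 3 lower with length correction. Without knockout library 3, 4 were called higher. Of 12 tested interstitial macrophage markers 2 were called higher (16.7%), Apoe among them, or 1 without knockout library 3 or wild type library 1 or 2. The summed levels of that list did not overlap between the groups and were higher in the knockout. Those of airway epithelial markers and of T, NK and innate lymphoid markers did not overlap either and were lower in the knockout. The sums of all remaining marker lists overlapped. Among the Polycomb lists, PRC1 components summed to 314 to 417 CPM in wild type and 464 to 524 CPM in the knockout. The demethylases of lysine 27 summed to 76.8 to 109 and 126 to 185 CPM, so both lists were apart as well. Abundant genes weigh most in such sums. Fibroblast and pericyte markers summed to 65.0 to 98.7 CPM in wild type and 55.0 to 171 CPM in the knockout, and endothelial markers to 227 to 325 and 150 to 318 CPM, with 1 gene called higher in each list (Npnt and Esam). The count for fibroblasts and pericytes ran from 0 with a stricter filter to 3 with DESeq2, and that for endothelium from 0, without any 1 of knockout libraries 1, 2, 4 and 5, to 5 without wild type library 2. Of 12 tested monocyte markers 2 were called higher (Ace and Nr4a1) and 1 lower (Spn), the latter lost without wild type library 1, 3 or 4 or with library size only. Neuronal and glial markers did not exceed 2.25 CPM and mast cell, basophil and eosinophil markers 2.75 CPM in any library. Dendritic cell markers summed to 68.6 to 158 CPM in wild type and 44.5 to 92.9 CPM in the knockout, B cell markers to 13.5 to 31.996 and 8.51 to 31.8 CPM, and airway epithelial markers to 93.7 to 133 and 38.1 to 83.8 CPM. Alveolar epithelial markers summed to 387 to 458 and 367 to 598 CPM, and mesothelial markers to 657 to 766 and 373 to 687 CPM. Genes at 0 in every library included Elane (neutrophil), Ncr1 (NK cell), Wt1 (mesothelium), Epx, Fcer1a, Mcpt4 and Tpsb2 (mast cell, basophil and eosinophil) and Nefl and Snap25 (neuron). No member was on a marker list, and the part of other cells in the members' levels was not tested.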

How the data were processed

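RNA of sorted alveolar macrophages from 4 wild type and 5 Suz12 cKO samples was sequenced as single reads of 85 bases, with 19 to 56 M reads each, as the series text states. The deposited values are raw gene counts that the authors made with featureCounts on mm10, per the submitters' processing notes. Aligner, annotation release and strand setting: not given in the sources used here. Single-library tables equalled the joint table in all 9 cases. Symbols, gene spans and promoters came from RefSeq tables of GRCm38.p6, which named 25275 identifiers. The other 1904 held 2.75% to 4.43% of the counts in wild type libraries and 0.875% to 1.20% in knockout libraries, so the groups did not overlap. They stayed in library sizes, and the cause of the difference was not tested.

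CPM was computed here from column totals. The whole table was fitted in R 4.3.3 with edgeR 4.0.16 (TMM, filterByExpr, robust quasi-likelihood test, Benjamini-Hochberg adjusted p threshold 0.05, no covariate), which was checked on simulated counts. Alternatives used DESeq2 1.42.0, limma 3.58.1 voom, other scaling, filters, length correction, a replicate block and leaving out each library. Folds against an all-zero group use a floor of 3 counts (0.0347 CPM over the wild type group), which covers counting error only.

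The members and lists were chosen with earlier results of these data known. Genes given with values in every library are the members highest per kilobase, with the largest ratios, no wild type reads, or the most or least even knockout values, the highest of each family, and those nearest a threshold. Sfmbt2, Vegfa, Col4a1 and all other members named were chosen after their values were seen, and their roles were grouped then. Values of 1 member and of a few other genes are not reported here.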

Additional observations from a re-analysis of the deposited data

Results flagged for a closer look

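In 13 of 74 groups of libraries (each of 37 genes in each genotype), 1 library lay far from the rest of its group by Dixon's criterion. The criterion could not be computed for 5 of the 74, the wild type groups of members with no wild type read. The criterion flags about 1 in 20 groups by chance, but that rate does not apply here: a single library with reads among libraries at 0 always meets it, and some genes, such as C4b and Fmnl2, were named for their spread. In wild type most of these are a single library with reads among libraries at or near 0: Btnl4 at 0.399 CPM and Sntb1 at 0.177 CPM in library 1, Caskin2 at 0.685, Plcb4 at 1.81, Pxylp1 at 0.201, Rilpl1 at 0.322, Spag11b at 0.483 and Tnfrsf14 at 0.644 CPM in library 2, and Il6 at 2.24 CPM in library 3. In the knockout, library 3 stood apart in C4b (16.0 CPM), Fmnl2 (15.8 CPM) and Sorl1 (114 CPM), and library 2 in Plcb4 (42.0 CPM).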

How the results depend on the processing

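The number of members, 68, followed the thresholds: 114 with a knockout floor of 1 CPM, 32 with 4 CPM, 140 with a ratio of 3 and 33 with a ratio of 10, and 55 to 90 when 1 library was left out. With CPM of TMM-scaled libraries 11 members were lost, and at equal depth 4. The members' median log2 fold change of 3.11 was 2.46 with a stricter filter, which kept 21 of them, 4.04 with limma voom, and 2.97 to 3.40 without 1 library. The replicate numbers do not pair the samples: same-numbered libraries correlated in their deviations at 0.04, 0.03, -0.06 and 0.12, and 1 of 4 wild type libraries correlated best with its own number. With the replicate block, which drops knockout library 5, the median was 3.59, with 741 genes called higher and 1121 lower, and the calls of Epop, Esam and Npnt were lost.

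With edgeR's main settings, 1152 genes were called higher and 1409 lower. Scaling by library size only gave 1960 and 1013 and a median log2 fold change over all genes of 0.15. Correction for gene length gave 1209 and 871. Leaving out 1 library gave 772 to 1434 higher and 1074 to 1521 lower. The cause of these shifts was not tested. No filter beyond a nonzero total gave 1310 and 1277, and leaving out wild type library 3 gave 1345 and 1263. The balance of higher and lower calls turned under library size only, length correction, no filter and without wild type library 3, and in none of the others. The members' median kept its sign and Suz12 stayed called lower in each alternative, and of 645 alternative values for 42 named genes 43 moved. Most wild type values of the members rest on few reads, which limits their precision.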
